A study of Mus musculus with 6 samples.

Results

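Thyroid hormone activation and response in fat was described by 7 genes of the 19937 genes with their own probe set on the array. They are the deiodinases Dio1, Dio2 and Dio3, the nuclear receptors Thra and Thrb, the transporter Slc16a10 and the target gene Thrsp. The members were named by symbol, and every probe set annotated to 1 of them was taken, which gave 7 of 34760 probe sets, 1 for each gene. No probe set with several symbols included a member.

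RNA came from inguinal white adipose tissue, a subcutaneous depot in which heat-producing beige adipocytes can arise. The 3 Atf7 knockout (KO) mice and the 3 wild-type (WT) mice were male littermates bred from heterozygotes on a C57BL/6 background, aged 5 weeks, and each gave 1 array. Both groups were kept under the same specific-pathogen-free housing, and no drug, diet or cold exposure is named for either. The labels name no Cre driver for the knockout and do not say which exons it removes. Values are log2 expression, so a difference of 1 is a doubling.

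Thyroid hormone leaves the gland mostly as thyroxine, a prohormone that enters cells through membrane transporters. Inside the cell, deiodinases remove iodine either to make the active hormone triiodothyronine or to inactivate both forms. Triiodothyronine then binds nuclear receptors that sit on DNA with retinoid X receptors and switch target genes between repression and activation. In brown and beige fat, local activation by Dio2 after sympathetic stimulation is known as a part of heat production, and in white fat the hormone is known to induce genes of lipid synthesis.

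Atf7, the targeted gene and a transcription factor of the ATF/CREB family, averaged 6.41 ± 0.17 in KO and 9.07 ± 0.12 in WT on the log2 scale with probe set 10433032 (SD, n = 3 each, limma adjusted p 0.00658). Its other probe set, 10433034, averaged 9.25 in KO and 9.42 in WT, and may lie outside the deleted part. Mature adipocyte markers were strong on all arrays, with a mean log2 level over 9 measured markers of 12.21 to 12.43 in KO and 12.13 to 12.39 in WT. KO replicate 3 stood apart, at -66.6 on a first principal component that held 44.7% of the variance, with the other arrays between -12.4 and 21.3. Its B cell and T cell markers were the lowest of all 6. The lymphocyte score, the mean centred log2 level of both marker lists, was -0.075, 0.67 and -2.59 on KO arrays 1, 2 and 3 and 0.52 to 0.79 on the WT arrays. Of 8 skin and epithelium markers, 5 were highest in WT replicate 2, and their list had centred levels of -0.28 to -0.12 in KO and -0.14, 0.93 and -0.15 in WT. Skeletal muscle markers varied within both groups, with centred levels of 1.48, -1.44 and -1.63 in KO and -1.54, 2.47 and 0.66 in WT.

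The bases before the annotated start are shown for Dio2 and Thrb, which are members whose KO arrays all lay above the WT arrays, because ATF/CREB factors as a family are known to bind the palindrome TGACGTCA, the cAMP response element. The RefSeq windows used here (GRCm38.p6) numbered 7 for 6 of the 7 genes, all but Thra. Each sequence covers the 250 bases before a start, 5′ to 3′ on the gene's strand. Capitals mark TGACG, the core of that element, and AGGTCA, the hexamer that thyroid hormone receptors recognise, on either strand. Where TGACG occurs on both strands and overlaps, the capitals run through the whole palindrome.
Dio2, chr12:90739039-90739288, minus strand: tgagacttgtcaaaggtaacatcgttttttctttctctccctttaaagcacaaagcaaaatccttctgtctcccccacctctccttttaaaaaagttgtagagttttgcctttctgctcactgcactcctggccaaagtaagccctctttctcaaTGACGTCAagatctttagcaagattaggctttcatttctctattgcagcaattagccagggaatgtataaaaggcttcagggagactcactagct
Thrb, chr14:17660710-17660959, plus strand: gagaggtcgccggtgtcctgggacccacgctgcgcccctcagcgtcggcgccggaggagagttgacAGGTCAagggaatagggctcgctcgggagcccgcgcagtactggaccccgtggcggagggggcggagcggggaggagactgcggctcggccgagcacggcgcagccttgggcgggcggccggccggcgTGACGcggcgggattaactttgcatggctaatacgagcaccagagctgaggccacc

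The Dio2 window held the complete palindrome TGACGTCA at positions -95 to -88 from the start, and it was the only one of the 7 member windows that did. Over all 32851 RefSeq windows of this length, 1.55% held it. The core TGACG was in 2 member windows, those of Dio2 and this start of Thrb (positions -56 to -52), and in 17.8% of all windows. AGGTCA was in 1 member window, Thrb at positions -184 to -179, and in 14% of all windows. The AP-1 element TGACTCA was in 0 member windows and 4.46% of all windows, and a direct repeat of AGGTCA with any 4 bases between in 0 and 0.0152%. The upstream window of the other annotated start of Thrb held none of the motifs searched. All motifs were searched on both strands. These matches describe the letters and say nothing of binding in this tissue.

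No member passed the test over all probe sets. Limma (adjusted p under 0.05) called 0 of 7 members, against 2 of 34760 probe sets in all, which is 0.00575%. At an unadjusted p under 0.05 there were 2 of 7 members, both nuclear receptors and both higher in KO, against 6.89% of all probe sets in either direction and 4.05% higher in KO. In 3 of 7 members, Dio2, Thra and Thrb, the lowest KO array exceeded the highest WT array, against 7.1% of all probe sets. The median log2 difference was 0.25 over the 7 members and 0.012 over all genes, and 6 of 7 members were positive, as were 53% of all genes. In bulk tissue, fewer cells of a type and less RNA per cell cannot be told apart. The smallest p that an exact permutation test can give with 3 arrays a group is 0.1.

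**Figure D1:**
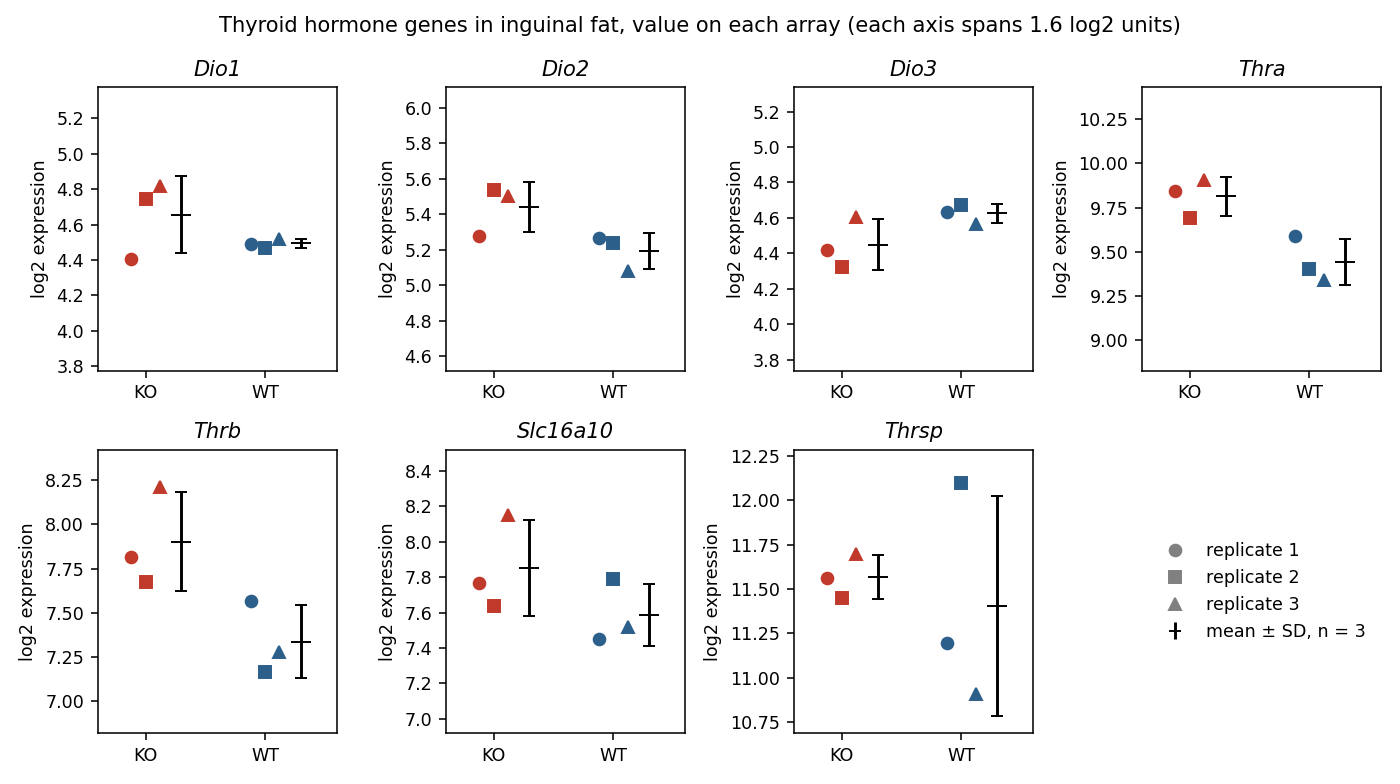
Log2 expression (vertical axis, 1.6 units in each panel) of the 7 genes on the KO arrays (red) and the WT arrays (blue). Symbols mark replicates, and the black bar is the mean with its SD (n = 3). All KO points of Thra, Thrb and Dio2 lie above the WT points, by 0.015 for Dio2, while the WT points of Thrsp spread from 10.91 to 12.10.

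Thrb, the beta receptor, which in liver and pituitary carries much of the response to the hormone, had the largest difference among the 7. Its log2 values were 7.82, 7.68 and 8.21 on the KO arrays, against 7.57, 7.17 and 7.28 on the WT arrays. The groups did not overlap, and the highest KO value belonged to KO replicate 3. The means were 7.90 ± 0.28 in KO and 7.34 ± 0.20 in WT (SD, n = 3 each), a log2 difference of 0.56 (SE 0.18, 95% interval 0.15 to 0.98), or 1.48-fold higher in KO. Limma's adjusted p was 0.696 (unadjusted 0.0154) and the exact permutation p was 0.1. Without KO replicate 3 the log2 difference was 0.41. Adding the lymphocyte score to the fit gave 0.35, with an unadjusted p of 0.0672. The part of lymphocyte content in the Thrb difference was not tested beyond these values.

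Thra, the alpha receptor, whose locus also gives a splice form that does not bind the hormone, differed by less and more evenly. Its log2 values were 9.84, 9.69 and 9.91 on the KO arrays, against 9.59, 9.40 and 9.34 on the WT arrays. All KO arrays were again higher, with the nearest KO and WT arrays 0.10 apart. The receptor differed by 0.37 on the log2 scale (SE 0.11, 95% interval 0.10 to 0.64), or 1.29-fold higher in KO, with means of 9.81 ± 0.11 in KO and 9.45 ± 0.13 in WT (SD, n = 3 each). Limma's adjusted p was 0.696 (unadjusted 0.0148) and the exact permutation p was 0.1. Without each array in turn the difference stayed between 0.32 and 0.44. Adding the lymphocyte score to the fit gave 0.29 (95% interval -0.019 to 0.61, unadjusted p 0.0613). One probe set does not tell the splice forms apart.

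Nr1d1, a repressor of the circadian clock, shares the Thra locus, and RefSeq places the ends of the genes over each other. Its log2 values were 11.10, 10.57 and 11.51 on the KO arrays, against 10.70, 9.15 and 10.97 on the WT arrays. The groups overlapped, and WT replicate 2 was far below the others. Nr1d1 differed by 0.78 on the log2 scale (SE 0.49, limma adjusted p 0.713), and the difference ran from 0.22 without WT replicate 2 to 1.13 without WT replicate 3. Whether the probe sets of the neighbours share signal was not tested. Without WT replicate 2, the array with the low Nr1d1 value, the Thra difference was 0.35.

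No deiodinase reached an unadjusted p under 0.05, and the 95% intervals of all 3 included 0. Dio2, which makes triiodothyronine inside brown and beige fat cells, had log2 values of 5.28, 5.54 and 5.50 on the KO arrays, against 5.27, 5.24 and 5.08 on the WT arrays. KO replicates 2 and 3 stood well clear of the WT arrays, while KO replicate 1 was 0.015 above WT replicate 1, the highest of them. The log2 difference was 0.25 (SE 0.11, 95% interval -0.025 to 0.52), with means of 5.44 ± 0.14 in KO and 5.19 ± 0.10 in WT (SD, n = 3 each). Limma's adjusted p was 0.696 (unadjusted 0.0685) and the exact permutation p was 0.1. It ran from 0.19 to 0.33 without each array in turn.

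Dio3, which inactivates both hormone forms and is best known from fetal tissue and placenta, was the only member with a negative difference, and it did not pass the test. Its log2 values were 4.42, 4.32 and 4.60 on the KO arrays, against 4.63, 4.67 and 4.57 on the WT arrays. KO replicates 1 and 2 lay below all WT arrays, and KO replicate 3 lay within the WT range. On the log2 scale Dio3 differed by -0.18 (SE 0.11, 95% interval -0.43 to 0.081, limma adjusted p 0.709). Leaving out KO replicate 2 gave -0.11, and adding the lymphocyte score to the fit gave -0.29, with an unadjusted p of 0.0295.

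Dio1, which acts chiefly in liver, kidney and thyroid, had log2 values of 4.41, 4.74 and 4.82 on the KO arrays, against 4.49, 4.47 and 4.52 on the WT arrays. The WT arrays lay close together, and the KO arrays fell on both sides of them. Its KO and WT means differed by 0.16 on the log2 scale (SE 0.13, 95% interval -0.14 to 0.47, limma adjusted p 0.760). Leaving out KO replicate 1 gave 0.29 and leaving out KO replicate 3 gave 0.082. Array weights gave 0.071, the lymphocyte score in the fit 0.087 and the muscle score 0.10. All 3 deiodinase probe sets were among the dimmest 30% of probe sets on these arrays. No detection call was used here, so a level near background cannot be told from a low one.

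**Figure D2:**
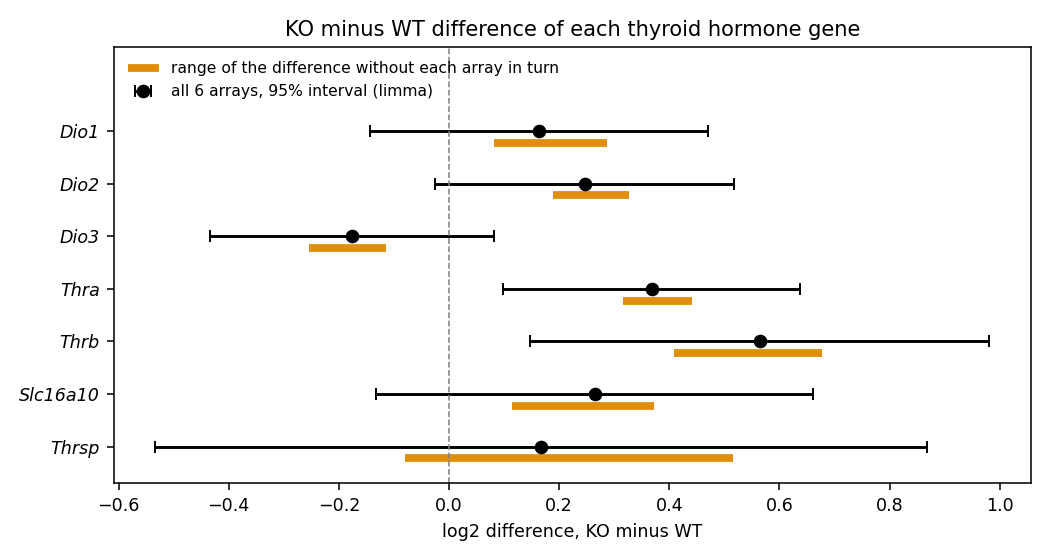
Log2 difference of each gene, KO minus WT (horizontal axis), with limma's 95% interval over 6 arrays (black) and the range of the difference without each array in turn (orange). The intervals of Thra (0.10 to 0.64) and Thrb (0.15 to 0.98) lie above 0, those of the other 5 genes include 0, and only the orange range of Thrsp crosses 0.

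Slc16a10 encodes a carrier of aromatic amino acids that also moves thyroid hormone across the plasma membrane. Its log2 values were 7.77, 7.63 and 8.15 on the KO arrays, against 7.45, 7.79 and 7.52 on the WT arrays. KO replicate 3 was the highest array, and KO replicates 1 and 2 both lay below WT replicate 2. This carrier differed by 0.26 on the log2 scale (SE 0.17, 95% interval -0.13 to 0.66, limma adjusted p 0.713). That value was 0.11 without KO replicate 3 and 0.047 once the lymphocyte score was in the fit.

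Thrsp, a nuclear protein that promotes lipid synthesis and is a classic target of the hormone in liver and fat, showed the widest spread within a group. Its log2 values were 11.56, 11.45 and 11.70 on the KO arrays, against 11.20, 12.10 and 10.91 on the WT arrays. All KO arrays lay inside the WT range, and WT replicate 2 was the highest of all 6. The SD was 0.12 in KO and 0.62 in WT, around means of 11.57 in KO and 11.40 in WT (n = 3 each). The log2 difference of 0.17 (SE 0.29, 95% interval -0.53 to 0.87, limma adjusted p 0.898) turned its sign without WT replicate 3. Leaving out 1 WT array gave 0.064 for replicate 1, 0.52 for replicate 2 and -0.079 for replicate 3, and leaving out KO replicate 3 gave 0.10. With the muscle score, which was highest in WT replicate 2, in the fit it was 0.29, and with the lymphocyte score 0.036. The epithelial markers were also highest in WT replicate 2, and their part in the Thrsp spread was not tested.

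**Figure D3:**
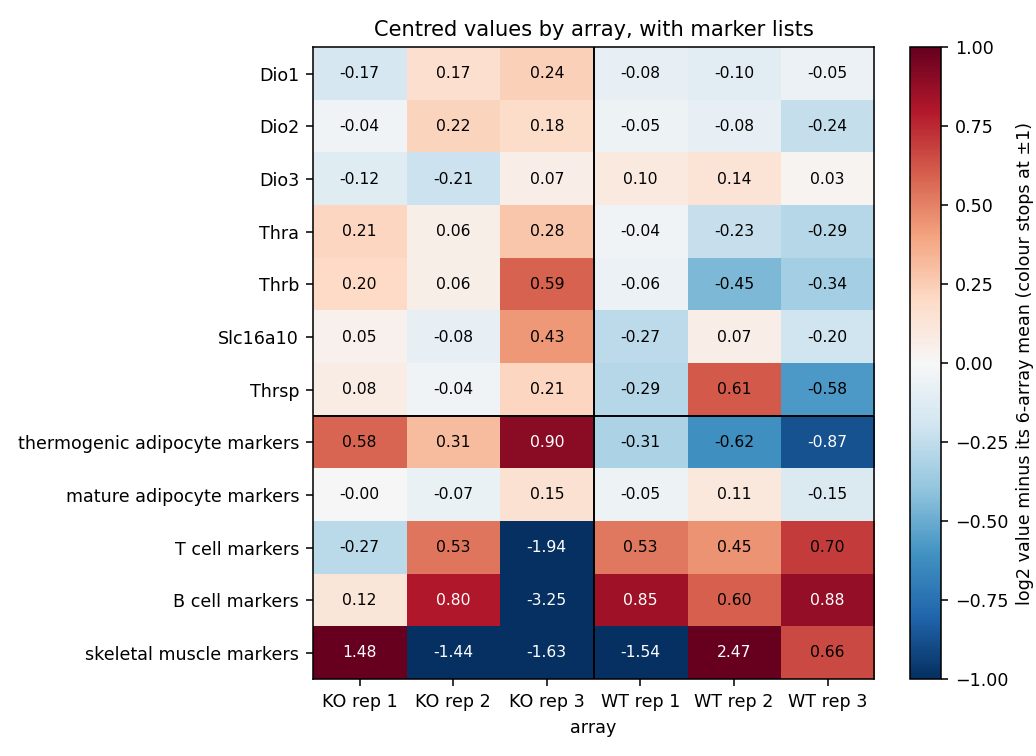
Log2 value minus the 6-array mean on each array (columns), for the 7 genes (upper rows) and the mean of 5 marker lists (lower rows). KO replicate 3 has the highest values of Thrb (0.59), Slc16a10 (0.43) and Thra (0.28) and the lowest lymphocyte markers (-1.94 for T cells, -3.25 for B cells), and WT replicate 2 has the highest Thrsp (0.61) and muscle markers (2.47).

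The genes whose centred values lay closest to those of Thrb over the 6 arrays were Akap1, Cntfr, Svep1, Rgs5 and Ptgfr, with root mean square differences of 0.046 to 0.072 on the log2 scale. Akap1, the closest, had log2 values of 8.85, 8.67 and 9.16 in KO, against 8.55, 8.19 and 8.18 in WT. For Thrsp they were Scnn1a, Usp2, Dcun1d3, Syt12 and Gpam, at 0.090 to 0.13. Scnn1a, the closest, had log2 values of 5.43, 5.28 and 5.67 in KO, against 5.13, 5.87 and 4.94 in WT. Gpam, the last of the 5, which starts glycerolipid synthesis, had log2 values of 10.23, 10.20 and 10.17 in KO, against 10.03, 10.95 and 9.65 in WT. All 5 shared with Thrsp KO values that lay inside a wider WT range, which largely follows from choosing them by closeness to Thrsp. These likenesses rest on 6 arrays and on the search over all genes.

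Of 20 listed target genes of the hormone 18 were measured, and 16 of them had a positive difference. An unadjusted p under 0.05 was reached by 6 genes higher in KO and by 0 lower in KO, against 4.06% and 1.79% of all genes. None of the 18 passed over all probe sets. The groups were apart, with KO above, for 8 of the 18, against 7.96% of all genes. The median log2 difference was 0.30, against 0.012 over all genes. The 6 became 3 with the lymphocyte score in the fit (median 0.29), where the probe sets higher at that threshold over the whole table also fell in number, to 824 of 34760 against 1409 with no covariate. Without each array in turn the 6 ran from 4, without KO replicate 1, KO replicate 3 or WT replicate 3, to 8, without WT replicate 2, and the median from 0.22 without WT replicate 3 to 0.40 without KO replicate 2. Over the whole table such probe sets numbered 844 without WT replicate 3, 900 without KO replicate 1, 959 without KO replicate 3 and 1166 without WT replicate 2. The list was drawn up with results of these data known, and several of its genes answer to other signals too.

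The 4 target genes with the smallest p were Ucp1, Gpd2, Ppargc1a and Ucp3, none of which passed. Ucp1, the uncoupling protein of brown and beige fat, had log2 values of 9.36, 8.76 and 9.65 on the KO arrays, against 7.04, 5.97 and 6.05 on the WT arrays (limma adjusted p 0.227). Gpd2, the mitochondrial dehydrogenase of the glycerol phosphate shuttle, had 9.91, 9.78 and 10.26 in KO, against 9.31, 9.50 and 9.02 in WT, a log2 difference of 0.71 (SE 0.17). Ppargc1a, a coactivator of mitochondrial biogenesis, differed by 0.86 (SE 0.25) and Ucp3, an uncoupling protein relative of muscle and brown fat, by 0.78 (SE 0.24). The adjusted p of these last 3 was 0.696. The list of thermogenic adipocyte markers, which shares Ucp1 and Ppargc1a with the targets, had KO above WT with no overlap for 8 of 9 measured genes, against 7.96% of all genes. For the other, Elovl3, KO was below WT by 0.063, with log2 values of 4.81 to 4.93 in KO and 4.94 to 4.96 in WT. These were lower than the Dio2 values on every array, so a level near background cannot be told from a low one. That list too was drawn up with results known. Its mean centred log2 level was 0.31 to 0.90 in KO and -0.87 to -0.31 in WT. The part of beige cell content in the target genes was not tested.

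The other 14 measured targets are also given, so that none is chosen by its value. Hr, the hairless corepressor, had log2 values of 7.37, 7.21 and 7.32 in KO, against 7.14, 6.71 and 6.97 in WT, a difference of 0.35 (SE 0.13). Acaca, an acetyl-CoA carboxylase, differed by 0.35 as well (SE 0.12, unadjusted p 0.0252). These 2 were the only ones of the 14 at an unadjusted p under 0.05. For Scd1, a fatty acid desaturase (0.23), and Mlxipl, a carbohydrate-sensing factor (0.50), the groups did not overlap either. In the remaining 10 targets the groups overlapped. Lipogenic ones among them differed by 0.11 for Fasn, fatty acid synthase, 0.14 for Me1, the cytosolic malic enzyme, 0.35 for Acly, ATP citrate lyase, 0.22 for Srebf1, a regulator of lipid synthesis, and 0.034 for Mid1ip1, the paralog of Thrsp. Klf9, a zinc finger factor induced through a receptor binding element, differed by 0.25, the glucose transporter Slc2a4 by 0.35 and the calcium pump Atp2a2 by 0.13. Cpt1a, which admits fatty acids to mitochondria, and Bcl3 had the 2 negative differences. Cpt1a had log2 values of 9.295, 8.725 and 8.995 in KO, against 9.168, 8.712 and 9.636 in WT, a difference of -0.17 (SE 0.26), and Bcl3 differed by -0.011 (SE 0.14). None of the 14 passed limma's adjusted threshold.

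**Figure D4:**
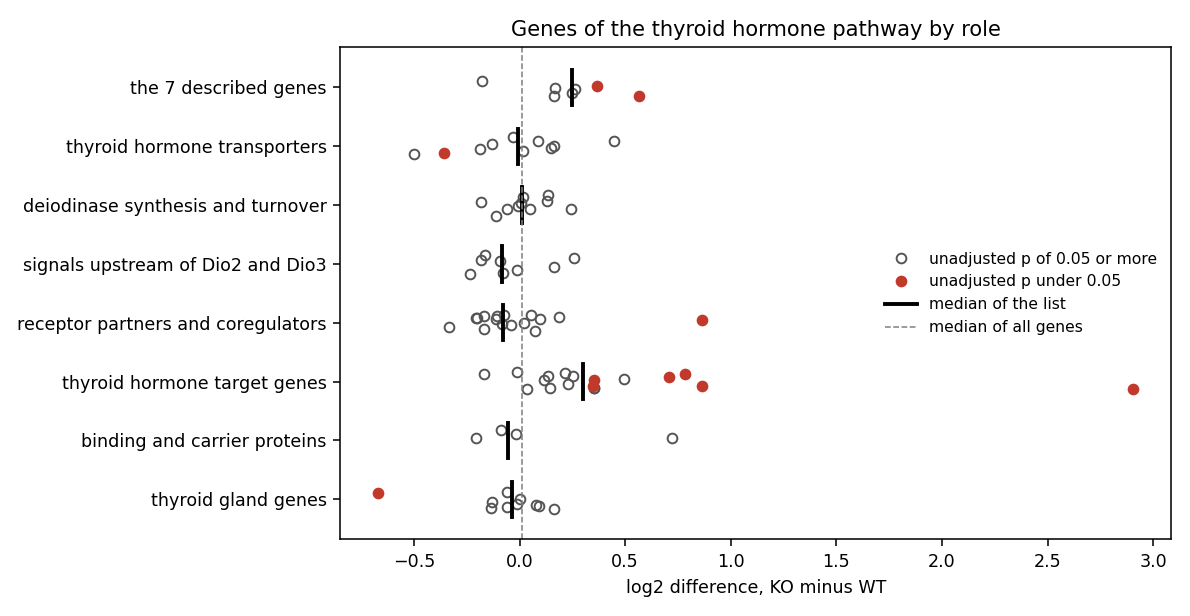
Log2 difference, KO minus WT (horizontal axis), of each gene in the lists of the thyroid hormone pathway (rows). Filled points have an unadjusted p under 0.05, black bars are list medians and the dashed line is the median of all genes. The target genes have a median of 0.30 and reach 2.91 with Ucp1, while the medians of the other lists outside the 7 genes lie between -0.086 and 0.011.

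The other lists of the pathway are described by their own counts, and differences between lists were not tested. Of 10 measured transporters other than Slc16a10, 5 were positive and 5 negative, with a median of -0.0091. At an unadjusted p under 0.05, 0 were higher and 1 was lower, against 4.06% and 1.79% of all genes. The groups were apart, with KO below, for 3 of the 10 (Slco4a1, Slc7a5 and Slco1c1), against 5.97% of all genes. With KO above they were apart for 0, against 7.96%. The gene lower at that threshold was Slco4a1, an organic anion carrier, with log2 values of 5.82, 6.01 and 6.08 in KO, against 6.31, 6.34 and 6.33 in WT (difference -0.36, SE 0.10, limma adjusted p 0.696). Of the amino acid carriers that also move the hormone, Slc7a8 differed by 0.45 (SE 0.21), and Slc7a5, which activated lymphocytes also use, by -0.50 (SE 0.24). Slc7a5 had log2 values of 7.85, 8.09 and 7.12 on the KO arrays, against 8.16 to 8.23 on the WT arrays. Its lowest value was in KO replicate 3, the array with the lowest lymphocyte score. The part of lymphocyte content in the Slc7a5 difference was not tested. Slco1c1, the thyroxine carrier of brain vessels, differed by -0.19 (SE 0.099).

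Receptor partners and coregulators numbered 16 measured genes, with 6 positive, 10 negative and a median of -0.079. Ppargc1a, given above, was the only 1 of the 16 at an unadjusted p under 0.05, and it was higher in KO. Of all genes, 4.06% were higher and 1.79% lower at that threshold. The coactivator Ncoa3 differed by -0.33 (SE 0.18) and Gps2 and Tbl1xr1, subunits of the corepressor complex, by -0.20 and -0.21 (SE 0.11 and 0.13). For these last 2 of the 16 the KO arrays were all below the WT arrays, against 5.97% of all genes. For 1, Ppargc1a, they were all above, against 7.96%.

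Genes that make selenocysteine proteins or turn deiodinases over had 6 of 10 positive, a median of 0.011 and 0 at an unadjusted p under 0.05. Eefsec, the selenocysteine elongation factor, differed by -0.18 (SE 0.10), Sepsecs, which makes the selenocysteine tRNA, by 0.13 (SE 0.10), Sephs2, which supplies selenophosphate, by 0.25 (SE 0.24) and Secisbp2, which binds the selenocysteine element in the mRNA, by -0.11 (SE 0.11). Signals upstream of Dio2 and Dio3 had 2 of 8 positive, a median of -0.086 and 0 at that threshold. Among them Adcy3, an adenylyl cyclase, differed by 0.26 (SE 0.15), Creb1, the cAMP-responsive factor, by -0.24 (SE 0.16), Gli2, a Hedgehog effector, by -0.18 (SE 0.13) and Prkar2b, a regulatory subunit of protein kinase A, by 0.16 (SE 0.16). The beta-adrenergic receptors were not analysed here.

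Carriers of the hormone in blood or cytosol had 1 of 4 positive, a median of -0.053 and 0 at an unadjusted p under 0.05. The shares of all genes at that threshold were 4.06% higher and 1.79% lower. Alb, serum albumin, differed by 0.72 (SE 0.38), Crym, a cytosolic binder of triiodothyronine, by -0.21 (SE 0.12), Serpina7, thyroxine-binding globulin, by -0.089 (SE 0.096) and Ttr, transthyretin, by -0.017 (SE 0.15). Genes of the thyroid gland, listed as a set with no known role in fat cells' hormone response, had 4 of 10 positive and a median of -0.035. At an unadjusted p under 0.05, 1 of the 10 was lower and 0 were higher, against 1.79% and 4.06% of all genes. The lower gene was the carboxylate carrier Slc5a8 (-0.67, SE 0.27, limma unadjusted p 0.0454). Its log2 value of 6.05 in WT replicate 2, the array with the highest epithelial markers, was the highest. That count of 1 became 0 with a common median, a further quantile normalization, the replicate block or the muscle score, without the dimmest 30% of probe sets, and without WT replicate 2, KO replicate 1 or KO replicate 2. Foxe1, Iyd and Slc5a5, a gland transcription factor, the iodotyrosine deiodinase and the iodide symporter, differed by 0.16, -0.13 and -0.14 (SE 0.095, 0.090 and 0.14). In this gland list the groups were apart, with KO above, for 1 of the 10 (Foxe1), against 7.96% of all genes. They were apart with KO below for 2 (Slc5a8 and Iyd), against 5.97%.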

How the data were processed

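RNA of 6 arrays, 3 KO and 3 WT, was analysed from the deposited table of log2 expression values, 1 per probe set and array. RMA, affy and limma are named per the submitters' processing notes, and their versions, options and annotation build are not given in the sources used here. Values ran from 1.44 to 14.15, with array medians of 6.41 to 6.49. RMA equalises arrays, which hides any shift common to most genes.

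Sample titles gave the groups, and per the series description each replicate is a mouse. Platform annotation named 21640 of 34760 probe sets with 1 gene, 1321 with several and 11799 with none. Lists used each gene's probe set with the highest mean. KO was compared with WT by limma 3.58.1 in R 4.3.3 (lmFit, eBayes, two-sided) over all 34760 probe sets, with Benjamini-Hochberg adjustment and a threshold of 0.05. No filter on dim probe sets was used. The test was checked on simulated data, where it recovered 52.7% of log2 differences of 1 and 92.2% of those of 2. Of its calls there, 5.28% were false on average. The simulated noise was independent between arrays, and no simulated array stood apart as KO replicate 3 did. These shares may therefore not hold for the real arrays, where Ucp1, with a log2 difference of 2.91, was not called. Smaller differences, such as the 0.56 of Thrb, were not simulated. Exact permutation tests used scipy 1.17.1.

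The genes, lists and tests were chosen with earlier results of these data known. The text names every member, Atf7, up to 4 genes with the smallest p in each list, a gene sharing a member's locus, and the 5 genes closest to each of the 2 members with the largest SD. The remaining target genes were added to these after their values were seen. The alternatives were other normalizations, probe set choices, variance models, array weights, a replicate block, covariates and leaving out each array. Promoter windows came from RefSeq (GRCm38.p6). The number of arrays limits the precision.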

Additional observations from a re-analysis of the deposited data

How the results depend on the processing

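Of the 7 members, 6 kept their direction under every alternative that gave a value, and no member passed limma's adjusted threshold under any. Thrsp turned to -0.079 without WT replicate 3, and ran from -0.079 to 0.52 without each array in turn. Of 7 members, 1 (Dio3) was at an unadjusted p under 0.05 with the lymphocyte score in the fit, against 4.49% of all probe sets. Without each array in turn there were 2 to 4, against 4.18% to 15% of all probe sets, and 4 of them (Dio1, Dio2, Thra and Thrb) without KO replicate 1, where the share was 4.18%. Thrb was not among them without WT replicate 2 (p 0.0536), where Thrsp was (p 0.0130). Members with no overlap and KO above numbered 3 to 5 without each array in turn, against 10.2% to 17.4% of all probe sets, and 5 without WT replicate 2, where Slc16a10 and Thrsp joined and the share was 12%. These alternatives for that count were added after seeing the data.

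Over all probe sets the 2 calls became 1 after a further quantile normalization, without the dimmest 30%, with single-gene probe sets and with the mean of probe sets per gene. They became 0 with 1 probe set per gene, the replicate block or the lymphocyte score, and 0 to 2 without each array in turn. With the muscle score they became 3, of which 1 was higher in KO. Of the 2 calls of the main fit, 1 was Atf7 probe set 10433032. The choice of 1 probe set per gene kept the brighter 10433034 for Atf7, so 10433032 was not in that fit. Same-numbered KO and WT arrays deviated from their group means with correlations of 0.00146, 0.0326 and 0.0436, and the other pairs with -0.0597 to 0.0259. KO replicates 2 and 3 correlated best with the WT array of the same number, and KO replicate 1 with WT replicate 3 (0.0148). Values this close to 0, from 3 arrays a group, cannot decide whether replicate numbers pair the arrays. With the replicate block the unadjusted p was 0.0270 for Thra and 0.0183 for Thrb, and no member's call changed.

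The transporter median was -0.24 without the dimmest 30% (4 genes left), the carrier median 0.26 (2 genes) and the gland median 0.078 (5 genes). Without each array in turn these medians ran from -0.078 to 0.027, from -0.088 to 0.014 and from -0.056 to 0.022. The coregulator median was -0.040 with the lymphocyte score and -0.11 to -0.042 without each array in turn. The cause of these shifts was not tested. The filter on dim probe sets removed all 3 deiodinases, so it gave no value for them.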
